A study of Homo sapiens with 8 samples.

Results

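The transcripts examined here were 49 genes of G2 phase and mitosis in 22Rv1, a human cell line of castration-resistant prostate cancer. They were chosen by name, as a list of gene symbols. All 49 were found among the 57603 gene identifiers of the expression table, and all 49 were tested among 17876 genes in all. The cells carried a transgene for HNF4G, a transcription factor of the nuclear receptor family that acts in gut and liver, or a GFP transgene as its control, both driven by a murine stem cell virus promoter according to the study. Cells of each kind received 25 nM ABBV-075, which blocks the bromodomains of BET proteins and so their binding to acetylated histones, or DMSO for 24 hours in medium with serum, which gave the groups HNF4G-ABBV-075, HNF4G-DMSO, GFP-ABBV-075 and GFP-DMSO with a pair of 2 libraries in each (number 1 and number 2, always given in that order). Nothing says that the libraries of a group were grown as separate cultures, so the p-values reflect library-to-library spread that may be technical, and no source used here says whether a line is a clone or a pool of cells. RNA was captured on poly-A and sequenced from paired ends, and the recovered reads came to between 31508275 and 40262678 per library. Values are normalized counts, which are reads divided by 1 size factor per library, so they are relative to the rest of each library.

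As background, a cell enters mitosis when cyclin-dependent kinase CDK1, bound to B-type cyclins, is freed of its inhibitory phosphates by CDC25 phosphatases. Polo-like and Aurora kinases then build the spindle, the kinetochores attach chromosomes to its microtubules, and the spindle checkpoint holds back the anaphase-promoting complex (APC/C) until every chromosome is attached. The APC/C, switched on by CDC20, has securin and cyclins destroyed, separase cuts the cohesin rings, and kinesins, PRC1 and the RhoA pathway divide the cell. Many of these genes are transcribed together late in the cycle by FOXM1, B-MYB and the MuvB core, which reaches a promoter element called the cell cycle genes homology region (CHR), often beside CCAAT boxes bound by NF-Y. In bulk RNA, fewer cells in G2 phase and mitosis and less RNA per such cell cannot be told apart.

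The promoters of the members showed what they share beyond their names. RefSeq promoter windows of the GRCh38.p14 build, from 250 bases before to 50 after a start site, were found for 42 of the 49 members (54 windows, 8 members with more than 1), and not for BIRC5, FOXM1, TPX2, BUB3, AURKA, UBE2C and TTK. A CHR (TTTGAA or TTCGAA, either strand) lay in a window of 33 of the 42 members (78.6%), against 19.5% of 27305 gene symbols and 16.4% of all 35116 windows. A CCAAT box (either strand) also lay in 33 of 42 members, against 39.7% of symbols and 34.6% of windows, and both motifs in 27 of 42 (64.3%), against 7.85% of symbols. The E-box CACGTG lay in 5 of 42 members (11.9%), against 8.77% of symbols. Among the members with a single window the CHR was found in 27 of 34 (79.4%), against 17.2% of the symbols with 1 window, so the share did not rest on members with several starts. A CHR match can share at most 1 letter with a CCAAT match, and none do in the stretches printed here.

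The 4 stretches below are from members that hold both motifs and that moved differently with the inhibitor, which is why they are shown: separase (ESPL1) fell in both lines, CDC20 was called higher in HNF4G cells, and PLK1 and cyclin B2 (CCNB2) were called in neither. Each runs 5′ to 3′ on the plus strand from 130 bases before to 20 after the RefSeq start, at chr12:53268169-53268318 for ESPL1, chr1:43358851-43359000 for CDC20, chr16:23678759-23678908 for PLK1 and chr15:59105016-59105165 for CCNB2. Capitals mark the CHR (TTTGAA) and the CCAAT boxes (CCAAT, or ATTGG where the box is on the other strand).
ESPL1: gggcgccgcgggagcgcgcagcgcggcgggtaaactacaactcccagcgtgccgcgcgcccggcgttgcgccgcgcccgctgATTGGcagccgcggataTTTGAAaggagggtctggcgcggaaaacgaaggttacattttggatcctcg
CDC20: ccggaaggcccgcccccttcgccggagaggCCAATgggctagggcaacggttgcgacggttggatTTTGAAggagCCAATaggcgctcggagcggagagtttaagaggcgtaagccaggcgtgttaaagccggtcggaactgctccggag
PLK1: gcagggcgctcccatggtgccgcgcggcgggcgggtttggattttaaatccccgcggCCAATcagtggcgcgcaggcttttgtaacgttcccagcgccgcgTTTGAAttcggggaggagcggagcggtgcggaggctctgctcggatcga
CCNB2: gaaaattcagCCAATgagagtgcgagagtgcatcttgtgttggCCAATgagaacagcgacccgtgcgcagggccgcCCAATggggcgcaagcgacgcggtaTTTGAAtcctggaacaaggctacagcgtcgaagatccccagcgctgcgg
In the printed stretches the CHR began 31 bases before the start in ESPL1, 65 in CDC20, 29 in PLK1 and 29 in CCNB2, each time downstream of at least 1 CCAAT box. Outside the stretches, the CDC20 window holds another CHR 178 bases before the start, upstream of both its boxes. The CCNB2 window likewise holds another box at 244. Within the stretches, ESPL1 had its box 48 bases before the start, on the minus strand, PLK1 at 73, CDC20 at 100 and 55, and CCNB2 had boxes at 120, 87 and 54. Set beside the responses described below, and among members with a window only, a CHR was found in 7 of 8 called lower with ABBV-075 in either line. It was also found in the 1 called higher and in 25 of 33 called in neither line. FOXM1, TPX2, AURKA, UBE2C and BIRC5, also called lower, and TTK, also called higher, have no window and are not counted. These are matches of letters, given as a description with no test.

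The libraries were checked before the members were compared. The HNF4G transcript stood at 43972 and 34116 in the HNF4G-ABBV-075 pair, against 10109.5 and 12104 in the HNF4G-DMSO pair, and at 206 and 213 in the GFP-ABBV-075 pair, against 1088 and 993 in the GFP-DMSO pair. The prostate luminal genes KRT8, KRT18, HOXB13, FOXA1 and FOLH1 were all tested, with HOXB13, the prostate homeobox factor, between 8768 and 12987.5 in the 8 libraries. Of 12 immune, endothelial and stromal markers 4 passed the filter on low values, 2 to 5 were at 0 in each library, and CD3E and CDH5 were at 0 in all 8. Their summed level was 345 and 349 in the HNF4G-ABBV-075 pair against 1193 and 1228 in the HNF4G-DMSO pair, and 419 and 408 in the GFP-ABBV-075 pair against 1539.7 and 1542 in the GFP-DMSO pair. LUM, the larger part of this sum in every DMSO library and a smaller share of it under ABBV-075, stood at 222 and 147 in the HNF4G-ABBV-075 pair, against 935 and 1042 in the HNF4G-DMSO pair, and at 216 and 216 in the GFP-ABBV-075 pair, against 1283 and 1263 in the GFP-DMSO pair. The part of this difference in the results on the members was not tested. The mean GC content of the transcripts behind the reads was 46.3% in 2 libraries, HNF4G-ABBV-075 number 1 and HNF4G-DMSO number 2, while the remaining 6 had 47.4% to 47.9%. The counts of called members are therefore given with and without these 2 libraries. Changes and calls of single members are from the fit of all 8 libraries unless stated, and some members not called there were called without these 2.

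Over the members, the HNF4G pairs differed in proportion to GC content. The members are AT-rich (median GC content 42.1%, from 34.3% to 59.1%, against 47.7% over all tested genes). In HNF4G-ABBV-075, number 1 exceeded number 2 in 40 of 49 members, by a median of 0.27 on the log2 scale: this held for 39 of 39 members under 50% GC and for 1 of 10 at or above 50%. In HNF4G-DMSO, number 2 exceeded number 1 in 36 of 49, by a median of 0.14, again for 35 of 39 members under 50% GC and for 1 of 10 above. Pearson's r of this difference with GC content was -0.88 in HNF4G-ABBV-075 and -0.89 in HNF4G-DMSO, against -0.17 in GFP-ABBV-075 and -0.50 in GFP-DMSO (49 genes in each, which share their 2 libraries and are not independent). The SD of the difference over members was 0.23 and 0.21 in the HNF4G groups, against 0.08 and 0.08 in the GFP groups. The members thus varied less between libraries in GFP cells than in HNF4G cells.

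**Figure D1:**
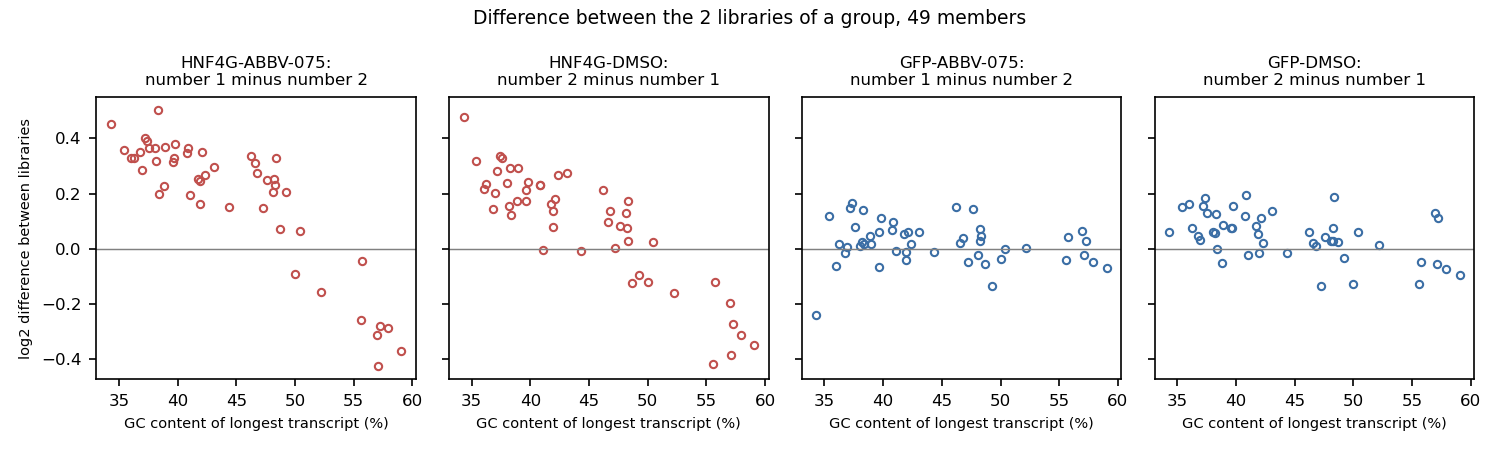
Log2 difference between the 2 libraries of each group (vertical axis) against the GC content of the longest transcript in percent (horizontal axis), with 1 point for each of the 49 members. The points run down with GC content between 0.50 and -0.43 in HNF4G-ABBV-075 and between 0.48 and -0.42 in HNF4G-DMSO, and stay between -0.24 and 0.20 in the GFP groups.

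With BET inhibition 42 of 49 members stayed within 0.5 of no change on the log2 scale in both lines. The share of all tested genes within this range was not counted. The question was whether the inhibitor lowers the genes of G2 phase and mitosis, and whether HNF4G alters that. With limma on log2(normalized count + 1), at a Benjamini-Hochberg adjusted p under 0.05 over all tested genes, 9 of 49 members were called in HNF4G cells (1 higher, 8 lower) and 13 of 49 in GFP cells (1 higher, 12 lower). Over all tested genes 31.2% were called in HNF4G cells (12.9% higher, 18.3% lower) and 33.4% in GFP cells (14.2% higher, 19.2% lower). As a share this was 18.4% of members in HNF4G cells and 26.5% in GFP cells, and for lower calls alone 16.3% and 24.5%. Whether these shares differ from those of all tested genes was not tested. The median change of the members was -0.04 in HNF4G cells and -0.10 in GFP cells on the log2 scale, against 0.02 and -0.01 over all tested genes, and the median size of the change, whatever its sign, was 0.19 and 0.23, against 0.36 and 0.37. A change of at least 1 on the log2 scale, which is a doubling or more in either direction, was seen in 1 member in each line, the same gene KIF14, against 15.1% of all tested genes in HNF4G cells and 16% in GFP cells.

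At an unadjusted p under 0.05 there were 16 members in HNF4G cells and 20 in GFP cells, where 42.5% and 43.9% of all tested genes were. In HNF4G cells 15 members were lower in both ABBV-075 libraries than in either DMSO library and 4 were higher, where 30.6% and 28.5% of all tested genes were. In GFP cells 30 members were lower without overlap and 8 were higher, where 40.6% and 38.4% of all tested genes were. Of the members, 15 were lower and 4 higher without overlap in both lines, where 27.2% and 23.4% of all tested genes were. The summed members stood at 269092 and 233094 normalized counts in HNF4G-ABBV-075, against 256447 and 276006 in HNF4G-DMSO. They stood at 229032 and 225922 in the GFP-ABBV-075 pair, against 249549 and 257829 in the GFP-DMSO pair. The sums overlapped between treatments in HNF4G cells and did not in GFP cells.

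Limits apply to both counts. Without HNF4G-ABBV-075 number 1 and HNF4G-DMSO number 2, which leaves 1 library in each HNF4G group and takes all spread from the GFP pairs, 25 members were called in HNF4G cells (5 higher, 20 lower; 47.6% of all tested genes) and 31 in GFP cells (7 higher, 24 lower; 60.1%), and with values corrected for GC content and length the counts were 25 (9 higher, 16 lower; 52.6%) and 27 (5 higher, 22 lower; 54.2%). With the libraries of 1 line alone, HNF4G cells had 1 call (KIF14 lower; 15.6% of all tested genes) and GFP cells had 31 (7 higher, 24 lower; 60.1%).

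**Figure D2:**
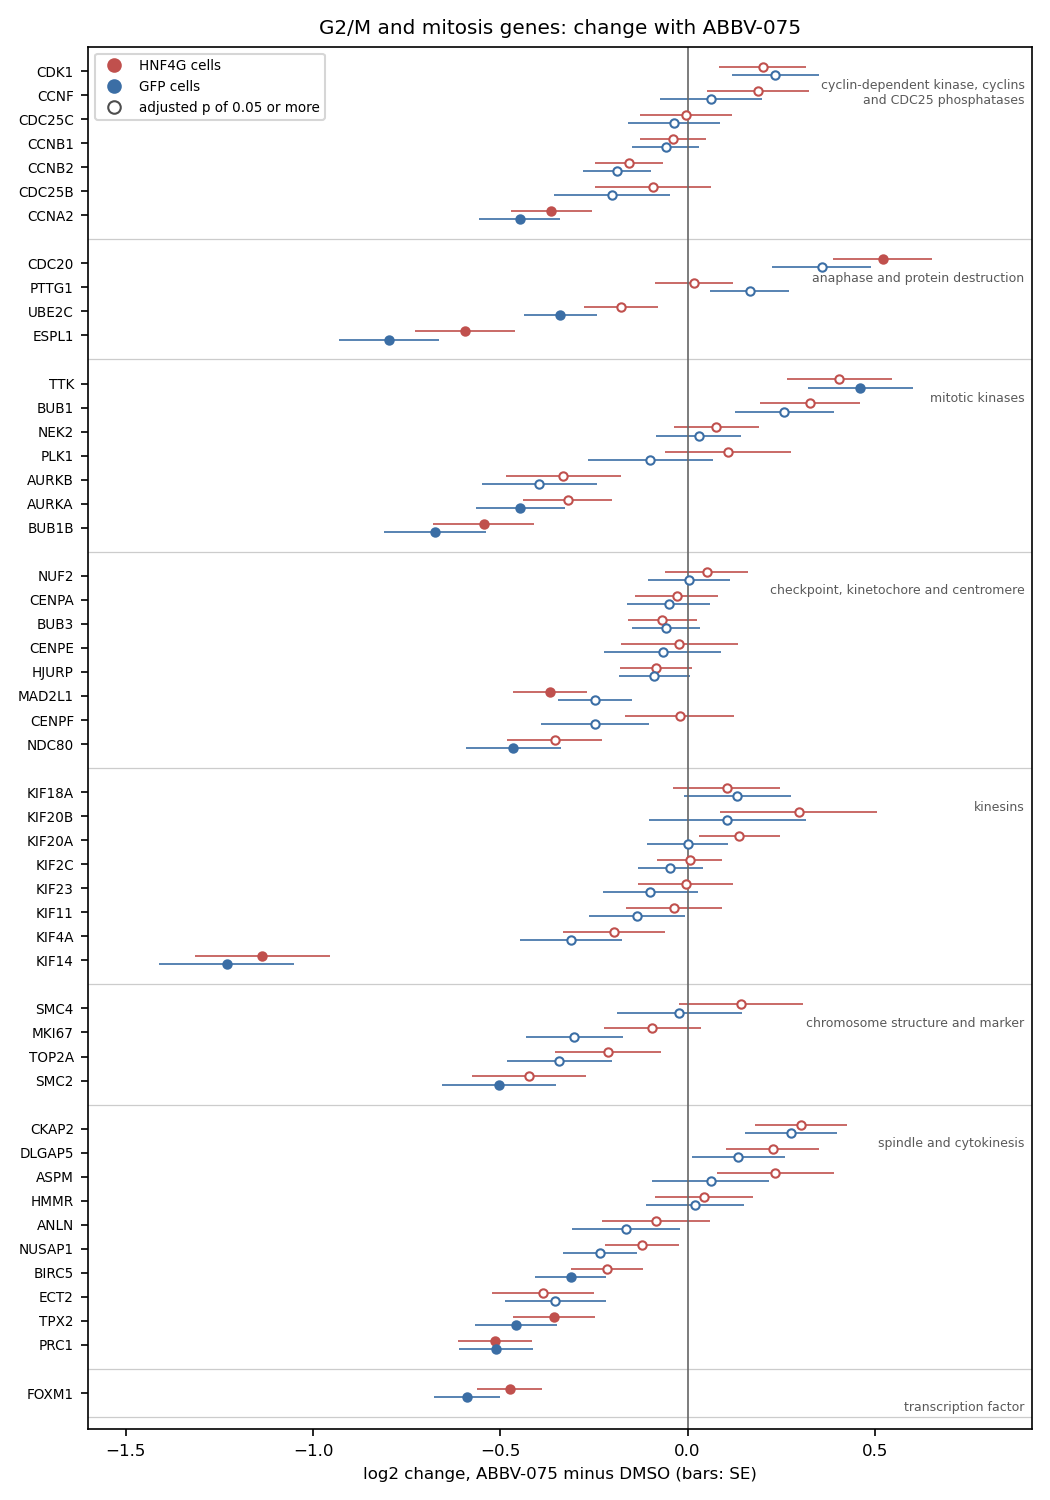
Log2 change with ABBV-075 against DMSO (horizontal axis, bars of 1 SE) for each of the 49 members (vertical axis, grouped by role), red for HNF4G cells and blue for GFP cells, filled where the adjusted p is under 0.05. KIF14 stands apart at -1.14 in HNF4G cells and -1.23 in GFP cells, and 42 members lie within 0.5 of no change in both lines. The share of all tested genes in this range was not counted. The SE of a gene is shared by both lines.

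The transcription factor FOXM1, which drives many of the other members, fell in both lines. FOXM1 (ENSG00000111206, chromosome 12, 2857680 to 2877174, GRCh38) stood at 5145 and 5311 in the HNF4G-ABBV-075 pair, against 7575 and 6966 in the HNF4G-DMSO pair, and at 5106 and 4954 in the GFP-ABBV-075 pair, against 7691 and 7443 in the GFP-DMSO pair. Every ABBV-075 library was below every DMSO library, and the spread within groups was small beside the gap. The log2 change was -0.47 ± 0.09 in HNF4G cells (adjusted p = 0.00514) and -0.59 ± 0.09 in GFP cells (adjusted p = 0.0018; limma, value ± SE here and below), or 0.72 and 0.665 times the DMSO level. For each gene the fit shares 1 spread among the 4 groups, so the SE is the same in both lines. Over the members, libraries differed more in the HNF4G pairs (SD 0.23 and 0.21) than in the GFP pairs (0.08 and 0.08). The shared SE is therefore not the precision of either line alone.

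Among CDK1, its cyclins and the CDC25 phosphatases, 1 of 7 members fell in each line and none rose. Cyclin A2 (CCNA2), which partners CDKs from S phase into early mitosis, was the one that fell. CDK1 itself stood at 10097 and 8275 in the HNF4G-ABBV-075 pair, against 7421 and 8529 in the HNF4G-DMSO pair, and at 8717 and 8678 in the GFP-ABBV-075 pair, against 7316 and 7469 in the GFP-DMSO pair. CCNA2 stood at 5403 and 4556 in the HNF4G-ABBV-075 pair, against 6088 and 6701 in the HNF4G-DMSO pair, and at 4287 and 4327 in the GFP-ABBV-075 pair, against 5769.8 and 5982 in the GFP-DMSO pair. Cyclin B1 (CCNB1), the main activator of CDK1 at mitotic entry, stood at 10245 and 9153 in the HNF4G-ABBV-075 pair, against 9689.6 and 10223 in the HNF4G-DMSO pair, and at 9699 and 9974 in the GFP-ABBV-075 pair, against 10299.8 and 10188 in the GFP-DMSO pair. CDK1 was thus higher in both GFP-ABBV-075 libraries than in GFP-DMSO and overlapped in HNF4G cells, CCNA2 was lower without overlap in both lines, and CCNB1 was nearly level. The log2 changes in HNF4G and GFP cells were -0.36 ± 0.11 and -0.45 ± 0.11 for CCNA2 (limma adjusted p = 0.0359 and 0.0153), 0.20 ± 0.12 and 0.23 ± 0.12 for CDK1 (adjusted p = 0.231 and 0.163), and -0.04 ± 0.09 and -0.06 ± 0.09 for CCNB1 (adjusted p = 0.766 and 0.651).

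The other 4 of this group were not called in either line. Cyclin B2 (CCNB2) stood at 4329.7 and 3898 in the HNF4G-ABBV-075 pair, against 4593 and 4562 in the HNF4G-DMSO pair, and at 4122 and 4157 in the GFP-ABBV-075 pair, against 4741 and 4693 in the GFP-DMSO pair. Cyclin F (CCNF), the substrate receptor of an SCF ubiquitin ligase, stood at 1808 and 2198 in the HNF4G-ABBV-075 pair, against 1923 and 1592 in the HNF4G-DMSO pair, and at 1991 and 1952 in the GFP-ABBV-075 pair, against 1816 and 1959.8 in the GFP-DMSO pair. CDC25B, a phosphatase that activates CDKs, stood at 3135 and 4049.9 in the HNF4G-ABBV-075 pair, against 4286 and 3368 in the HNF4G-DMSO pair, and at 3521 and 3698 in the GFP-ABBV-075 pair, against 4288 and 4013 in the GFP-DMSO pair. CCNB2 was lower without overlap in both lines by only -0.16 ± 0.09 in HNF4G cells and -0.19 ± 0.09 in GFP cells on the log2 scale, while CCNF overlapped in both lines and CDC25B overlapped in HNF4G cells. CDC25C, its relative at mitotic entry, stood at 1235 and 1038 in the HNF4G-ABBV-075 pair, against 1102 and 1168 in the HNF4G-DMSO pair, and at 976 and 882 in the GFP-ABBV-075 pair, against 938 and 965 in the GFP-DMSO pair, and its treated and control libraries overlapped in both lines.

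Of the 4 genes of anaphase, 1 rose and 1 fell in HNF4G cells, and 2 fell and none rose in GFP cells. Separase, ESPL1 (ENSG00000135476, chromosome 12, 53268299 to 53293638), the protease that opens cohesin, stood at 1719 and 2138 in the HNF4G-ABBV-075 pair, against 3097 and 2703 in the HNF4G-DMSO pair, and at 1732 and 1655 in the GFP-ABBV-075 pair, against 2815 and 3077 in the GFP-DMSO pair. CDC20 (ENSG00000117399, chromosome 1, 43358981 to 43363203), the activator of the APC/C, stood at 10076 and 12303 in the HNF4G-ABBV-075 pair, against 8651 and 6959.9 in the HNF4G-DMSO pair, and at 11470.4 and 11873 in the GFP-ABBV-075 pair, against 9335 and 8881 in the GFP-DMSO pair. ESPL1 was lower and CDC20 higher in every ABBV-075 library than in any DMSO library of the same line. ESPL1 fell in both lines, with log2 changes of -0.59 ± 0.13 in HNF4G cells and -0.80 ± 0.13 in GFP cells (limma adjusted p = 0.0121 and 0.00309). CDC20 rose by 0.52 ± 0.13 in HNF4G cells (adjusted p = 0.0201), and in GFP cells its change was 0.36 ± 0.13 (adjusted p = 0.0722). In HNF4G cells the call on CDC20 was lost without HNF4G-DMSO number 2 or without HNF4G-ABBV-075 number 2, and the call on ESPL1 without HNF4G-DMSO number 1.

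Of the other members of this group, UBE2C, the ubiquitin-conjugating enzyme that serves the APC/C, stood at 3385 and 3606 in the HNF4G-ABBV-075 pair, against 4121 and 3789 in the HNF4G-DMSO pair, and at 3271 and 3357 in the GFP-ABBV-075 pair, against 4383 and 4010.4 in the GFP-DMSO pair. Securin (PTTG1), the inhibitor of separase, stood at 5242 and 4541 in the HNF4G-ABBV-075 pair, against 4979 and 4664 in the HNF4G-DMSO pair, and at 5231 and 5739 in the GFP-ABBV-075 pair, against 4940.4 and 4827 in the GFP-DMSO pair. UBE2C was lower without overlap in both lines and passed the test in GFP cells (-0.34 ± 0.10, limma adjusted p = 0.0305) and not in HNF4G cells (-0.18 ± 0.10, adjusted p = 0.206). PTTG1 passed in neither, at 0.02 ± 0.10 in HNF4G cells and 0.17 ± 0.10 in GFP cells, where both ABBV-075 libraries were above both DMSO libraries.

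Of the 7 mitotic kinases, counted with the kinase-like checkpoint protein BUB1B, 1 fell in HNF4G cells, and 2 fell and 1 rose in GFP cells. BUB1B (ENSG00000156970, chromosome 15, 40161023 to 40221123), also called BubR1, stood at 4220.0 and 3436 in the HNF4G-ABBV-075 pair, against 5053 and 6109 in the HNF4G-DMSO pair, and at 3253 and 3122 in the GFP-ABBV-075 pair, against 4855 and 5337 in the GFP-DMSO pair. TTK (ENSG00000112742, chromosome 6, 80003887 to 80042527), the kinase that starts the spindle checkpoint, stood at 3809 and 2994 in the HNF4G-ABBV-075 pair, against 2351 and 2763 in the HNF4G-DMSO pair, and at 3345 and 3189 in the GFP-ABBV-075 pair, against 2277 and 2472 in the GFP-DMSO pair. BUB1, the checkpoint kinase that sits at unattached kinetochores, stood at 5732 and 4496 in the HNF4G-ABBV-075 pair, against 3803 and 4304 in the HNF4G-DMSO pair, and at 4459 and 4271 in the GFP-ABBV-075 pair, against 3508 and 3791 in the GFP-DMSO pair. All 3 were free of overlap in both lines, with BUB1B lower and with TTK and BUB1 higher under ABBV-075. BUB1B fell, with log2 changes of -0.54 ± 0.14 in HNF4G cells and -0.68 ± 0.14 in GFP cells (limma adjusted p = 0.0184 and 0.00708). TTK rose in GFP cells by 0.46 ± 0.14 (adjusted p = 0.037), and its change in HNF4G cells was 0.41 ± 0.14 (adjusted p = 0.0602). BUB1 passed in neither line, at 0.33 ± 0.13 and 0.26 ± 0.13 (adjusted p = 0.0979 and 0.173).

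Polo-like kinase PLK1, needed from mitotic entry to cytokinesis, stood at 2727 and 3665 in the HNF4G-ABBV-075 pair, against 3353 and 2569 in the HNF4G-DMSO pair, and at 3441 and 3496 in the GFP-ABBV-075 pair, against 3788 and 3644 in the GFP-DMSO pair. AURKA, the spindle pole Aurora kinase, stood at 3021 and 2438 in the HNF4G-ABBV-075 pair, against 3276 and 3505 in the HNF4G-DMSO pair, and at 2621 and 2585 in the GFP-ABBV-075 pair, against 3522 and 3574 in the GFP-DMSO pair. AURKB, the Aurora kinase of the chromosomal passenger complex, stood at 2246 and 2688 in the HNF4G-ABBV-075 pair, against 3574 and 2675 in the HNF4G-DMSO pair, and at 2826 and 2906 in the GFP-ABBV-075 pair, against 3942 and 3605 in the GFP-DMSO pair. AURKA was lower without overlap in both lines, AURKB overlapped in HNF4G cells only and was lower without overlap in GFP cells, and PLK1 overlapped in HNF4G cells, where it was lower in the low-GC library of each group. AURKA fell in GFP cells (-0.45 ± 0.12, limma adjusted p = 0.0221), while its change in HNF4G cells was -0.32 ± 0.12 (adjusted p = 0.0748). AURKB did not pass, at -0.33 ± 0.15 in HNF4G cells and -0.40 ± 0.15 in GFP cells (adjusted p = 0.14 and 0.0838), nor did PLK1, at 0.11 ± 0.17 and -0.10 ± 0.17. The centrosome kinase NEK2 was not called, with changes of 0.08 ± 0.11 and 0.03 ± 0.11.

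**Figure D3:**
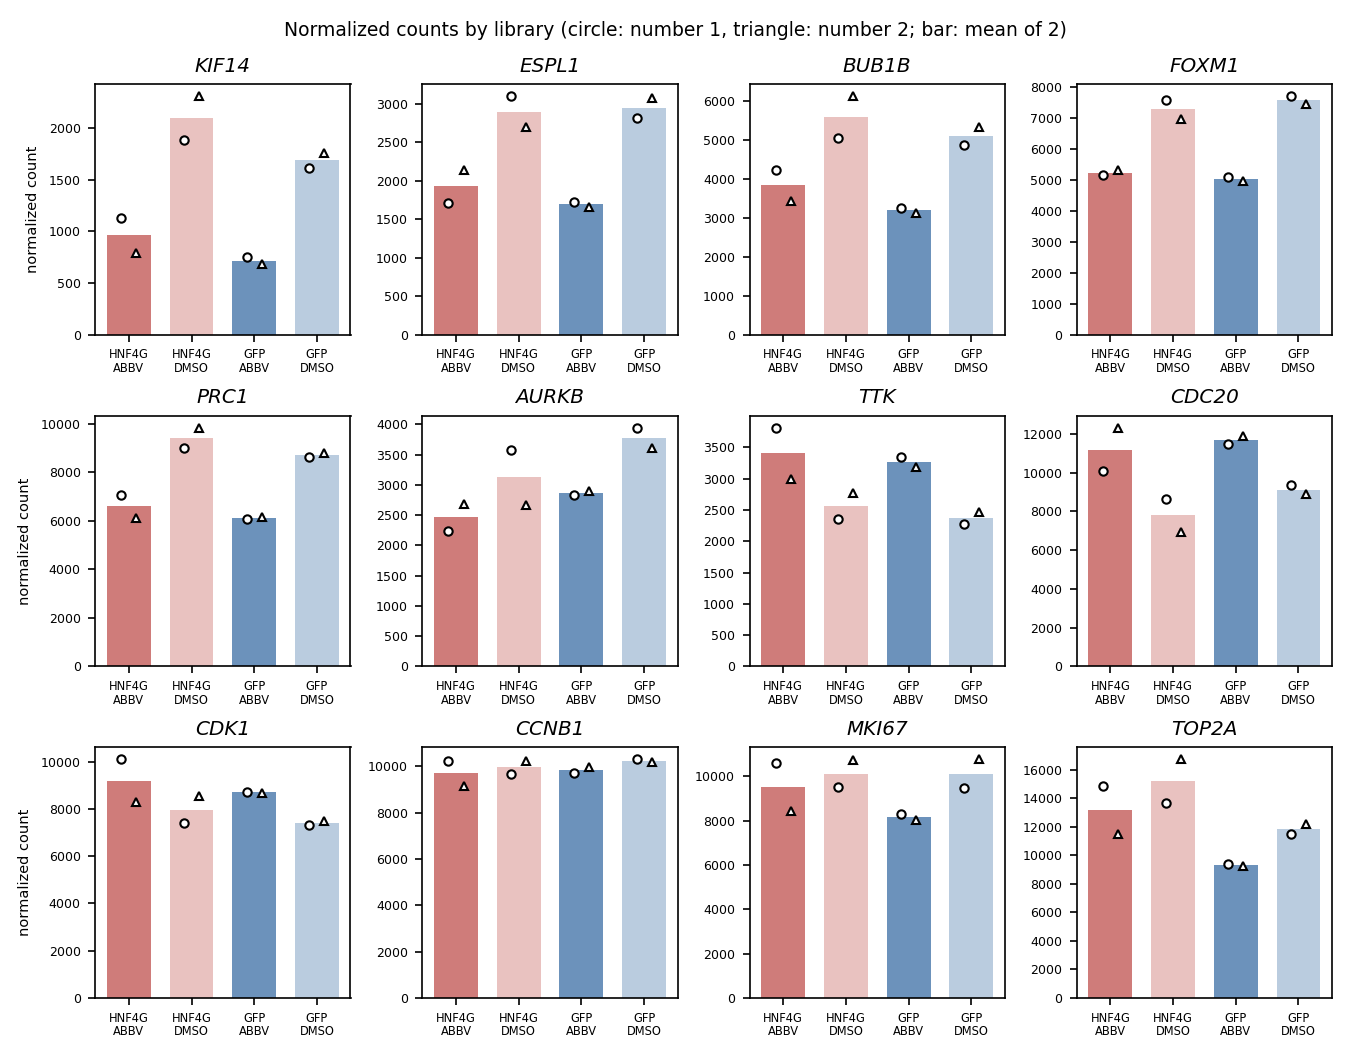
Normalized counts (vertical axes, from 0) of 12 members by group (horizontal axes), with 1 point for each library, a circle for number 1 and a triangle for number 2, and bars at the mean of 2. For KIF14 the 4 ABBV-075 libraries are at or below 1129 and the 4 DMSO libraries at or above 1613, while CCNB1 stays between 9153 and 10299.8.

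The checkpoint, kinetochore and centromere proteins, 8 members, held 1 fall in each line and no rise. MAD2L1, the checkpoint protein that binds CDC20, stood at 6168 and 5382 in the HNF4G-ABBV-075 pair, against 7123 and 7752 in the HNF4G-DMSO pair, and at 5884 and 5813 in the GFP-ABBV-075 pair, against 6939.8 and 6940.0 in the GFP-DMSO pair. BUB3, the partner of BUB1 and BubR1, stood at 8042 and 7030.5 in the HNF4G-ABBV-075 pair, against 7888 and 7867 in the HNF4G-DMSO pair, and at 7397 and 7439.9 in the GFP-ABBV-075 pair, against 7779.8 and 7663 in the GFP-DMSO pair. MAD2L1 fell in HNF4G cells (-0.37 ± 0.10, limma adjusted p = 0.0243), and in GFP cells its change was -0.25 ± 0.10 (adjusted p = 0.0889), while BUB3 changed by -0.07 ± 0.09 in HNF4G cells and -0.06 ± 0.09 in GFP cells. Of the NDC80 complex, which grips microtubules, NDC80 fell in GFP cells (-0.47 ± 0.13, adjusted p = 0.0247; -0.36 ± 0.13 and adjusted p = 0.0674 in HNF4G cells), but its partner NUF2 changed by only 0.05 ± 0.11 in HNF4G cells and 0.00 ± 0.11 in GFP cells. The kinetochore motor CENPE stood at 2999 and 2341 in the HNF4G-ABBV-075 pair, against 2409 and 3005 in the HNF4G-DMSO pair, and at 2176 and 2006 in the GFP-ABBV-075 pair, against 2076 and 2304 in the GFP-DMSO pair. CENPF, a kinetochore and nuclear matrix protein, stood at 8097 and 6294 in the HNF4G-ABBV-075 pair, against 6686 and 7849 in the HNF4G-DMSO pair, and at 5779.8 and 5398 in the GFP-ABBV-075 pair, against 6193 and 7094 in the GFP-DMSO pair. CENPE overlapped between treatments in both lines, and CENPF was lower without overlap in GFP cells only, at -0.02 ± 0.14 in HNF4G cells and -0.25 ± 0.14 in GFP cells with no call. The centromeric histone CENPA and its chaperone HJURP had changes between -0.09 and -0.03 in the 2 lines.

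The kinesins held the largest change of the 49. KIF14 (ENSG00000118193, chromosome 1, 200551497 to 200620751), a motor of the midzone and cytokinesis, stood at 1129 and 797 in the HNF4G-ABBV-075 pair, against 1884 and 2306 in the HNF4G-DMSO pair, and at 754 and 683 in the GFP-ABBV-075 pair, against 1613 and 1759.7 in the GFP-DMSO pair. It fell to 0.455 times the DMSO level in HNF4G cells and 0.426 times in GFP cells, with log2 changes of -1.14 ± 0.18 (limma adjusted p = 0.00264) and -1.23 ± 0.18 (adjusted p = 0.00172), and it was called lower under all 22 alternative settings in both lines. No other kinesin was called. KIF20A, needed at the midzone, stood at 4442 and 3727 in the HNF4G-ABBV-075 pair, against 3603 and 3792 in the HNF4G-DMSO pair, and at 3523 and 3353 in the GFP-ABBV-075 pair, against 3401 and 3470.0 in the GFP-DMSO pair. KIF20B, another cytokinesis kinesin, stood at 421 and 308 in the HNF4G-ABBV-075 pair, against 248 and 346 in the HNF4G-DMSO pair, and at 247 and 292 in the GFP-ABBV-075 pair, against 244 and 255 in the GFP-DMSO pair. KIF2C, which takes microtubules apart at centromeres, stood at 4063 and 3882 in the HNF4G-ABBV-075 pair, against 3922 and 3988 in the HNF4G-DMSO pair, and at 3636 and 3635 in the GFP-ABBV-075 pair, against 3676 and 3832 in the GFP-DMSO pair. These 3 overlapped between treatments, apart from KIF2C in GFP cells, where the ABBV-075 libraries were lower by -0.05 ± 0.09 on the log2 scale. KIF11, KIF18A, KIF23 and KIF4A, motors of the spindle and of chromosomes, had changes between -0.31 and 0.13, with the lowest for KIF4A in GFP cells (-0.31 ± 0.14, adjusted p = 0.119).

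Of the 4 genes of chromosome structure and the proliferation marker, 1 fell in GFP cells and none in HNF4G cells. Topoisomerase TOP2A, which untangles sister chromatids, stood at 14839.9 and 11481 in the HNF4G-ABBV-075 pair, against 13660.3 and 16734 in the HNF4G-DMSO pair, and at 9390.3 and 9285 in the GFP-ABBV-075 pair, against 11482 and 12201 in the GFP-DMSO pair. MKI67, the proliferation marker that coats mitotic chromosomes, stood at 10611 and 8452 in the HNF4G-ABBV-075 pair, against 9515 and 10739 in the HNF4G-DMSO pair, and at 8317 and 8054 in the GFP-ABBV-075 pair, against 9457 and 10766 in the GFP-DMSO pair. Condensin subunit SMC4 stood at 5243 and 4003 in the HNF4G-ABBV-075 pair, against 3693 and 4666 in the HNF4G-DMSO pair, and at 3419 and 3044 in the GFP-ABBV-075 pair, against 3073 and 3490.2 in the GFP-DMSO pair. TOP2A and MKI67 were lower without overlap in GFP cells and overlapped in HNF4G cells, and SMC4 overlapped in both. SMC2, the partner of SMC4 in condensin, fell in GFP cells (-0.50 ± 0.15, limma adjusted p = 0.0362) and its change was -0.42 ± 0.15 in HNF4G cells (adjusted p = 0.0679). TOP2A changed by -0.21 ± 0.14 in HNF4G cells and -0.34 ± 0.14 in GFP cells (adjusted p = 0.291 and 0.0996), and MKI67 by -0.09 ± 0.13 and -0.30 ± 0.13 (adjusted p = 0.617 and 0.111).

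The 10 genes of the spindle and cytokinesis held 2 falls in HNF4G cells and 3 in GFP cells. PRC1 (ENSG00000198901, chromosome 15, 90966040 to 90995629), which bundles the microtubules of the midzone, stood at 7074 and 6134 in the HNF4G-ABBV-075 pair, against 8993 and 9834 in the HNF4G-DMSO pair, and at 6076 and 6169.9 in the GFP-ABBV-075 pair, against 8638 and 8807 in the GFP-DMSO pair. Survivin (BIRC5), of the chromosomal passenger complex, stood at 6603 and 7367 in the HNF4G-ABBV-075 pair, against 8567 and 7660.0 in the HNF4G-DMSO pair, and at 7403 and 7389 in the GFP-ABBV-075 pair, against 9137 and 9230.1 in the GFP-DMSO pair. CKAP2, a spindle protein, stood at 10708 and 8398 in the HNF4G-ABBV-075 pair, against 7311 and 8075 in the HNF4G-DMSO pair, and at 9408 and 9502 in the GFP-ABBV-075 pair, against 7679 and 7929.9 in the GFP-DMSO pair. PRC1 and BIRC5 were lower and CKAP2 higher without overlap in both lines. PRC1 fell in both lines, with log2 changes of -0.51 ± 0.10 in HNF4G cells and -0.51 ± 0.10 in GFP cells (limma adjusted p = 0.00635 and 0.00601). TPX2, the activator of AURKA, fell in both as well (-0.36 ± 0.11 and -0.46 ± 0.11, adjusted p = 0.0403 and 0.0147). BIRC5 passed in GFP cells (-0.31 ± 0.10, adjusted p = 0.0384) and not in HNF4G cells (-0.22 ± 0.10, adjusted p = 0.125), and CKAP2 passed in neither (0.30 ± 0.12 and 0.28 ± 0.12). ECT2, the exchange factor for RhoA, did not pass at -0.39 ± 0.14 in HNF4G cells and -0.35 ± 0.14 in GFP cells (adjusted p = 0.0637 and 0.08), and NUSAP1, ANLN, HMMR, DLGAP5 and ASPM lay between -0.23 and 0.23.

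Across roles, 15 members were called in at least 1 line and 34 in neither. The 7 called lower in both lines were KIF14, ESPL1, BUB1B, FOXM1, PRC1, TPX2 and CCNA2, and no member was called higher in both. Shares of all tested genes called in both lines, in at least 1 or in neither were not counted. These counts therefore describe the members only and do not set them apart from other genes. AURKA, NDC80, SMC2, UBE2C and BIRC5 were called lower in GFP cells alone, MAD2L1 lower in HNF4G cells alone, CDC20 higher in HNF4G cells alone and TTK higher in GFP cells alone, but none of these differences between lines passed a test of its own, as described below. Without any 1 GFP library, 3 to 5 of the 13 GFP calls remained, and 16.3% to 17.2% of all tested genes were called: KIF14, ESPL1 and FOXM1 in each case, with BUB1B and PRC1 without GFP-DMSO number 1 and BUB1B without GFP-ABBV-075 number 1. In HNF4G cells KIF14 was called in all 22 alternative settings, FOXM1 and PRC1 in 21, ESPL1 and BUB1B in 20 and CDC20 in 19, but MAD2L1 in 12, CCNA2 in 11 and TPX2 in 10. There 5 to 14 members were called when 1 library was left out, with 5 without HNF4G-DMSO number 2 (21.5% of all tested genes) and 14 without HNF4G-ABBV-075 number 1 (35.2%).

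**Figure D4:**
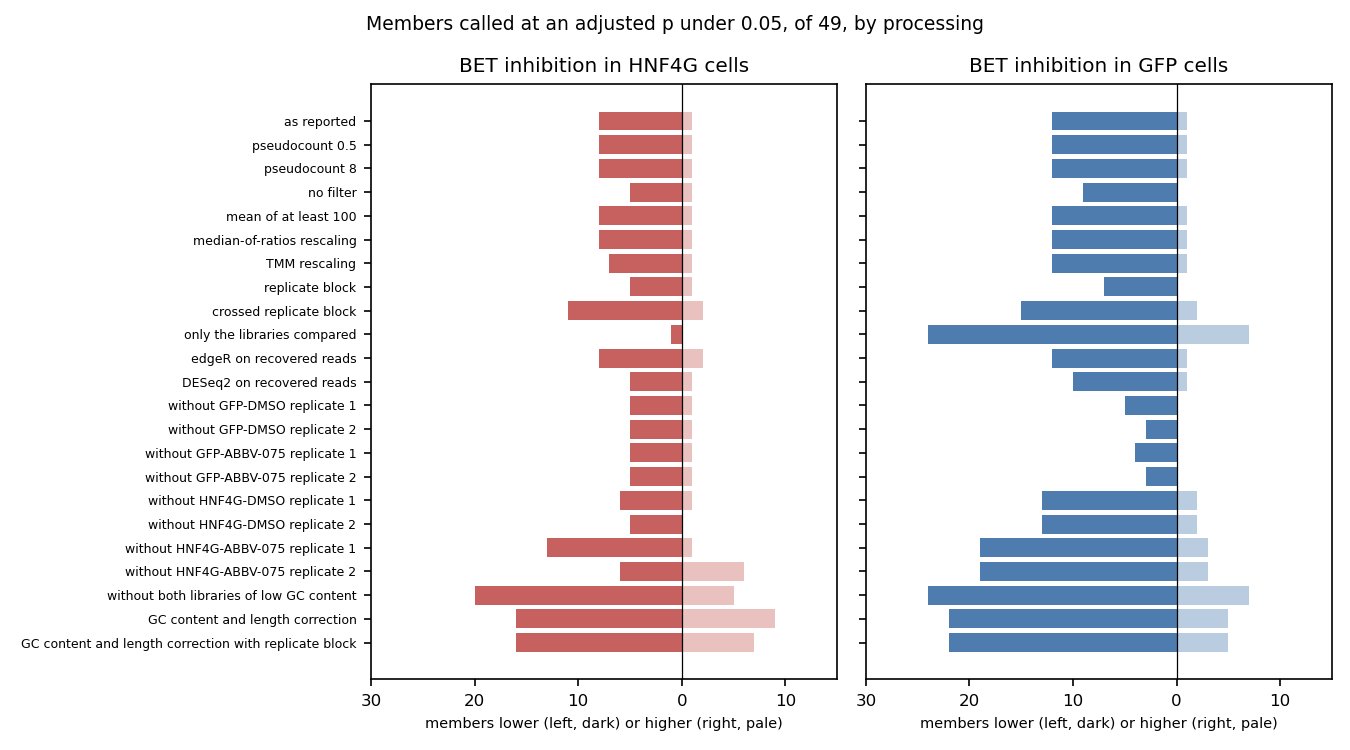
Number of the 49 members called lower (left of 0, dark) or higher (right of 0, pale) with ABBV-075 (horizontal axis; calls as in the text) under each processing setting (vertical axis), in HNF4G cells and in GFP cells. Counts run between 1 and 25 in HNF4G cells and between 3 and 31 in GFP cells, with lower calls in the majority or even under every setting.

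The effect of the inhibitor was compared between the lines with the interaction term of the same fit. None of the 49 members was called (2 of 17876 genes, 0.0112%, were), none had an unadjusted p under 0.05 (2.53% of all tested genes did), and edgeR and DESeq2 on the recovered reads also called none. The smallest unadjusted p among the members was 0.276, and the largest difference between lines was 0.23 on the log2 scale, for CENPF (-0.02 in HNF4G cells and -0.25 in GFP cells). The SE of the difference ran from 0.12 to 0.30 over the members, with a median of 0.18. The median size of the changes themselves was 0.19 in HNF4G cells and 0.23 in GFP cells. A difference between lines as large as a typical change could therefore be missed at this depth and number of libraries. The change was the less negative or more positive one in HNF4G cells for 41 of 49 members, by a median of 0.09, against a median of 0.01 over all tested genes. The 2 sets of changes had the same sign in 46 of 49 members, with Pearson's r of 0.97 across the 49 genes, which share 1 fit and no library and are not independent replicates. Shares over all tested genes were not counted for the 41 and the 46 of 49, and neither count was tested.

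Between HNF4G and GFP cells the members were not called under either treatment. Under DMSO, none of the 49 passed (0.901% of all tested genes did) and 1 had an unadjusted p under 0.05 (12.1% did). Under ABBV-075 none passed (1.97% did) and 6 had such a p (15.1% did). edgeR and DESeq2 called none in either comparison. Under DMSO, 20 members were higher in both HNF4G libraries than in either GFP library and 6 lower, where 26.6% and 25.1% of all tested genes were. Under ABBV-075, 25 were higher and 3 lower without overlap, where 24.1% and 20.4% were. These 2 comparisons share no library with each other, but each shares its libraries with the comparisons of the inhibitor.

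SMC4 and TOP2A, both of chromosome structure, had the highest differences under ABBV-075, and neither was called. SMC4 had log2 differences of 0.51 ± 0.17 under ABBV-075 and 0.34 ± 0.17 under DMSO (limma adjusted p = 0.215 and 0.456), and TOP2A 0.48 ± 0.14 and 0.35 ± 0.14 (adjusted p = 0.168 and 0.38). KIF20B (0.42 ± 0.21) and KIF14 (0.40 ± 0.18) were next under ABBV-075, and PLK1 was the lowest under DMSO at -0.34 ± 0.17. SMC4, TOP2A, KIF20B and KIF14 have 34.3% to 38.9% GC in their transcripts and PLK1 has 57.1%, and in both HNF4G groups the library of low GC content was the higher one for the first 4 and the lower one for PLK1. With values corrected for GC content and length, the difference under ABBV-075 passed for 10 members (11.6% of all tested genes), all higher in HNF4G cells (ASPM, KIF20A, SMC4, ECT2, NEK2, TOP2A, SMC2, CENPE, CCNA2 and CDC25C), and for 2 of them, SMC4 and TOP2A, when the replicate number was also a block (7.22%). Without the 2 libraries of low GC content it passed for 5 (17.8%), with SMC4, TOP2A and ESPL1 higher and CKAP2 and PTTG1 lower, and under DMSO for TOP2A alone (6.52%).

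The rest of the mitotic pathway was read from lists of related genes, given as counts beside the shares above. Of 33 other kinetochore and checkpoint genes, 1 was higher and 2 lower in HNF4G cells and 5 were lower in GFP cells, with medians of -0.03 and 0.03. Among them TRIP13, the ATPase that remodels MAD2, fell in both lines (-0.80 ± 0.11 in HNF4G cells and -0.97 ± 0.11 in GFP cells on the log2 scale, limma adjusted p = 0.00135 and 0.000511), ZWILCH, of the complex that brings dynein to kinetochores, changed by -0.57 ± 0.13 and -0.57 ± 0.13 (adjusted p = 0.0144 and 0.0136), and the scaffold KNL1 rose in HNF4G cells (0.51 ± 0.15, adjusted p = 0.0357). Of 25 other spindle and cytokinesis genes, 1 was lower in HNF4G cells and 2 in GFP cells, with medians of -0.08 and -0.11: RACGAP1, the partner of KIF23, in HNF4G cells (-0.37 ± 0.11) and HASPIN, a histone kinase, and SPAG5 in GFP cells (-0.62 ± 0.14 and -0.38 ± 0.12). Of 20 condensin and cohesin genes, 2 were lower in HNF4G cells and 1 in GFP cells, with medians of 0.01 and -0.09, and the cohesin subunit STAG1 was called in both (-0.70 ± 0.19 and -0.89 ± 0.19, adjusted p = 0.024 and 0.00829). The guardian of cohesin SGO1 was called in HNF4G cells alone (-0.53 ± 0.14).

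The APC/C list of 17 genes held 1 rise and 1 fall in each line, with medians of 0.10 in HNF4G cells and 0.08 in GFP cells. Its small subunit ANAPC16 rose in both (0.34 ± 0.09 and 0.38 ± 0.09), CDC23 fell in HNF4G cells (-0.40 ± 0.12) and the large subunit ANAPC1, whose reads could be shared with its pseudogene copies, in GFP cells (-0.55 ± 0.16). Of the 17 DREAM, MuvB and E2F regulators, which include the factors that read the CHR and CCAAT elements, 1 was higher and 5 lower in HNF4G cells and 1 higher and 3 lower in GFP cells. The repressor E2F8 fell in both lines (-0.71 ± 0.11 and -0.95 ± 0.11, limma adjusted p = 0.00269 and 0.000655) and NFYA, the CCAAT-binding subunit, rose in both (0.60 ± 0.11 and 0.65 ± 0.11, adjusted p = 0.00551 and 0.00347). LIN9, of the MuvB core, fell in GFP cells (-0.67 ± 0.13), and E2F5 in HNF4G cells (-0.62 ± 0.15).

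Of 21 genes of mitotic entry and its restraint, 3 were higher and 5 lower in HNF4G cells and 4 higher and 6 lower in GFP cells, with medians of 0.05 and 0.00. CDC25A, the phosphatase that also acts before S phase, fell in both lines (-0.77 ± 0.12 and -0.85 ± 0.12, limma adjusted p = 0.0025 and 0.00153). The stress gene GADD45B stood at 629 and 1006 in the HNF4G-ABBV-075 pair, against 340.3 and 253 in the HNF4G-DMSO pair, and at 860.5 and 858 in the GFP-ABBV-075 pair, against 368 and 340.4 in the GFP-DMSO pair and rose in both, by 1.43 ± 0.23 and 1.28 ± 0.23 (adjusted p = 0.00267 and 0.00417). ENSA, which with MASTL restrains the phosphatase PP2A in mitosis, rose by 0.56 ± 0.08 and 0.66 ± 0.08, PLK2 fell in HNF4G cells (-0.84 ± 0.17) and CDC14B fell in GFP cells (-0.81 ± 0.13). CDC14B was also the 1 gene of these mitosis lists called between lines under ABBV-075, at 0.92 ± 0.13 in HNF4G over GFP cells (adjusted p = 0.016).

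Genes of the preceding phase of the cycle are set beside the members here. Of 23 genes of G1/S transition and replication, 1 was higher and 13 lower in HNF4G cells and 1 higher and 14 lower in GFP cells, with medians of -0.42 in both lines. Among them E2F2, an activator of S-phase genes, changed by -1.35 ± 0.09 in HNF4G cells and -1.56 ± 0.09 in GFP cells, and GINS1, of the replicative helicase, by -0.82 ± 0.11 and -0.83 ± 0.11 (limma adjusted p = 0.00126 and 0.00109), while CCND1 rose by 0.58 ± 0.07 and 0.50 ± 0.07 (adjusted p = 0.000738 and 0.00134). The shares of lower calls, 13 and 14 of 23, stand beside 8 and 12 of the 49 members. The difference between the 2 lists was not tested.

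**Figure D5:**
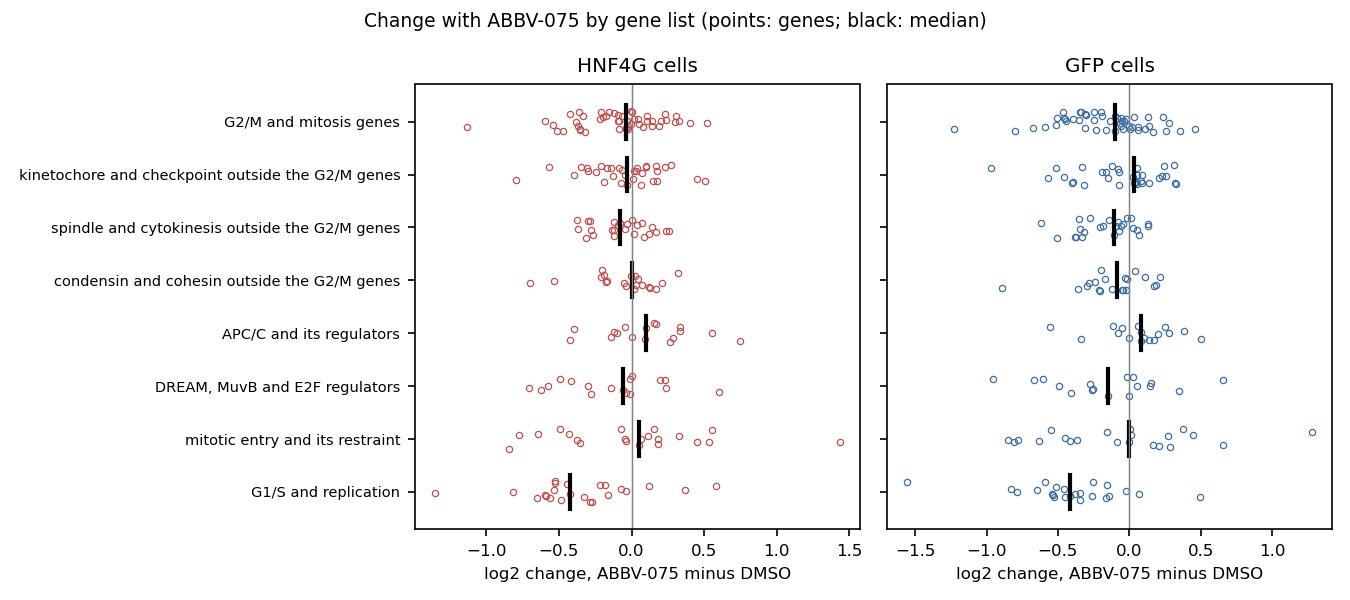
Log2 change with ABBV-075 against DMSO (horizontal axes) for each tested gene (points) of the G2/M and mitosis genes and 7 further lists (vertical axis), in HNF4G cells and in GFP cells, with a black bar at each list's median. The bars of the mitosis lists lie between -0.15 and 0.10, and the bar of the G1/S list at -0.42 in both lines.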

How the data were processed

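Total RNA of 22Rv1 cells was captured on poly-A and sequenced from paired ends. According to the labels and the paper's methods, reads were mapped by the authors to hg38 using STAR (2.6 in the submitters' processing notes, another version in the methods). Not given in the sources used here are how genes were counted, the strand setting, the annotation and where the size factors came from. The values the authors deposited are a signal, namely normalized counts: each gene's reads over a single factor per library. In every library 100% of the values above 0 were within 0.01 of a whole multiple of that library's step, which returned the whole reads. Of 57605 entries, 2 that repeated an identifier were dropped, and 17600 identifiers had no symbol. With no spike-in analysed, a shift of the whole transcriptome would be missed.

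Testing covered the 17876 genes whose mean normalized count across the 8 libraries was 10 or more, among them all 49 members, each with at least 224 reads in every library. The model was limma 3.58.1 in R 4.3.3 on log2(normalized count + 1), trended on intensity, with 1 mean for each of the 4 groups. Each gene had 1 spread, shared by all 4 groups. All 5 contrasts were two-sided, with Benjamini-Hochberg adjustment over all tested genes and calls at an adjusted p under 0.05. The model was tested on simulated data. The members and lists were chosen with earlier results of these data known. Per-library values are given for a fixed set of 28 members and the 5 largest called changes in each direction and contrast, and others are named to account for the members. Outside the members, up to 2 called genes per list, contrast and direction were named, with a mean of at least 50. Gene coordinates are from GENCODE 44 (GRCh38), whose longest transcripts gave GC content and length, and promoters are from RefSeq.

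Alternatives were pseudocounts of 0.5 and 8, no filter, a mean of at least 100, median-of-ratios and TMM rescaling, a replicate block, only the libraries compared, DESeq2 1.42.0 and quasi-likelihood edgeR 4.0.16 on the recovered reads, each library left out, both libraries of low GC content left out, and a correction for GC content and length (loess, span 0.3), alone and with the replicate block. A crossed block was added after seeing the data.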

Additional observations from a re-analysis of the deposited data

How the results depend on the processing

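In GFP cells 13 members were called. The count was 9 to 17 with the other pseudocounts, filters, scalings and tools and a crossed replicate block, 7 with the replicate block, 31 with only the GFP libraries, 27 with the GC content and length correction (27 with the replicate block added) and 31 when HNF4G-ABBV-075 number 1 and HNF4G-DMSO number 2, of low GC content, were both left out. It was 3 to 22 with 1 library left out, where the lone library of a group is assumed to vary like the other groups. In HNF4G cells 9 were called, with 6 to 13 under the other pseudocounts, filters, scalings, tools and blocks, 1 with only the HNF4G libraries, 25 with the correction (23 with the replicate block), 25 without those 2 libraries and 5 to 14 with 1 library left out. The share of all tested genes called moved with these counts. Between lines under DMSO the count was 0, with 1 under the correction and 1 without both libraries. Under ABBV-075 it was 0, with 10 under the correction, 2 with the replicate block added, 5 without both libraries and 0 to 1 with 1 library left out (TOP2A higher without HNF4G-ABBV-075 number 2). For the interaction it was 0 throughout. CKAP2 in HNF4G over GFP cells under ABBV-075, at 0.00 and not called, was lower without both libraries (-0.17, limma adjusted p = 0.031). Other settings left the direction of each called value in place. The cause of these moves was not tested, except that fewer libraries enter the smaller fits.

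The labels number the 2 libraries of each group alike, but nothing says that a number marks a shared culture or day. Deviations of libraries with the same number correlated at -0.60 between the HNF4G groups and between -0.13 and 0.13 elsewhere (17861 genes), so libraries with the same number did not deviate alike. With 2 libraries per group, the -0.60 means that libraries of unlike number deviated alike between the HNF4G groups. The crossed replicate block swaps the numbers of HNF4G-ABBV-075 and so pairs those libraries. Whether a number marks a shared culture or day cannot be told from these values. The crossed replicate block gave 13 members in HNF4G cells and 17 in GFP cells, and the replicate block 6 and 7. With 2 libraries per group the precision is limited.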
